A study of Mus musculus with 9 samples.

Results

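The Notch receptors, ligands and targets examined here were Notch1, Notch2, Notch3, Notch4, Jag1, Jag2, Dll1, Hes1 and Hey1, and every probe set (a group of short probes on the array that together report a transcript) annotated with 1 of these symbols was taken. Of the 9 genes, 8 had a probe set, of the 8251 genes named on the array, and Jag1 had none in the annotation used. The 8 genes were covered by 12 of 12422 probe sets, and 10 of these, from 7 genes, passed the filter on low signals and were tested with the 9783 probe sets in all. RNA was taken from the whole no. 4 inguinal mammary gland of wild type C57BL/6J females at puberty (labelled virgin, 6 weeks, 3 arrays), day 14 of pregnancy (2 arrays), day 10 of lactation (2 arrays) and day 4 of involution after lactation (2 arrays). Each array carried RNA of a different mouse, and the design held no mutant, treated or sorted sample.

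Notch receptors are transmembrane proteins that are bound by Jagged and Delta-like ligands on a neighbouring cell. Binding lets ADAM proteases and then gamma-secretase cut the receptor, and the freed intracellular part enters the nucleus, where it joins the DNA-binding protein RBPJ and Mastermind coactivators and switches on genes of the Hes and Hey families, which encode repressors. In the mammary gland the pathway is known for its part in the choice between luminal and basal epithelial fates, while Notch4 was first found as a site where mouse mammary tumour virus inserts, and Notch receptors also act in vessels and in blood cells.

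The proximal promoters of 4 members are printed because the probe sets of these genes differed between stages, and because they show how unlike the start regions of members of a single pathway are. RefSeq windows of 250 bases before to 50 bases after a transcript start (GRCm38.p6) were given for 7 of the 9 members, all but Hes1 and Hey1. Capitals mark matches on either strand to the N box CACNAG (a binding sequence of Hes repressors), the GC box GGGCGG (bound by SP1 family factors) and the AP-1 site TGACTCA. The windows lie at chr2:26503773-26504072 on the minus strand (Notch1), chr3:98013288-98013587 on the plus strand (Notch2), chr17:34564045-34564344 on the plus strand (Notch4) and chr17:15376883-15377182 on the minus strand (Dll1).
Notch1: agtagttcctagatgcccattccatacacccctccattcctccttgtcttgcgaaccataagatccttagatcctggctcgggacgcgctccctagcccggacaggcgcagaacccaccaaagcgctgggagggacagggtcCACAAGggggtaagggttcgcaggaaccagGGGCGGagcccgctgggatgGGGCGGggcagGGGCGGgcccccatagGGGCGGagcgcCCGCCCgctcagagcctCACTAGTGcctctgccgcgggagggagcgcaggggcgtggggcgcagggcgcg
Notch2: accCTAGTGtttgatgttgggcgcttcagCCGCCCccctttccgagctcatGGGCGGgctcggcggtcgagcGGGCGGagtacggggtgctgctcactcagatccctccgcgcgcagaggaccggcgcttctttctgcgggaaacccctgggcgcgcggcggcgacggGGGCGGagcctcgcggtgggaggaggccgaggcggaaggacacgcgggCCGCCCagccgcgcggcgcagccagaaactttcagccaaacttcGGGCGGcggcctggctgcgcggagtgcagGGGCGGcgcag
Notch4: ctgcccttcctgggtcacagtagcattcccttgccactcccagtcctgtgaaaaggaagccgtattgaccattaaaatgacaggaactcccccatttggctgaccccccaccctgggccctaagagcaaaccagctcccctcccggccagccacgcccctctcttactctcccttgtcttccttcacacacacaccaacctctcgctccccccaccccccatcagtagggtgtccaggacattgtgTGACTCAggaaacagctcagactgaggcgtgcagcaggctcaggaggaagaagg
Dll1: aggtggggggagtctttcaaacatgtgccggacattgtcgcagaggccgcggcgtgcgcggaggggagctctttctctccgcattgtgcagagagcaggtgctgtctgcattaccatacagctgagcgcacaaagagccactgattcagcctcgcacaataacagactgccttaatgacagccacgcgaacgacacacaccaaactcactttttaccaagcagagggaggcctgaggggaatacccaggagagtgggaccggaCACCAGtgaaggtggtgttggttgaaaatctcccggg
The Notch1 window held 5 GC boxes and 3 N boxes, of which those at -3 and -1 from the start overlap in opposite orientation. The Notch2 window held 7 GC boxes and 1 N box. The Notch4 window had no GC box and a single AP-1 site, 4 bases before the start, while that of Dll1 held only an N box, 13 bases after it. Among all 32851 mouse windows of this length, 35.7% held a GC box, 42.5% an N box and 5.2% the AP-1 site. The letters of the RBPJ core, TGGGAA, present in 25.6% of all windows, and the E box CACGTG, present in 7.15%, were found in no window of the 7 members. These matches describe the letters of the windows and are not evidence of binding.

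The arrays were alike in overall signal. Scaling them to the same median took factors of 0.948 to 1.06, and the correlation of log2 signals was 0.947 to 0.975 between arrays of a stage and 0.724 to 0.935 between stages. Signals below are median-scaled intensities in arbitrary units, values under 20 were treated as 20 in every test and log2 change, and a change is given as the log2 difference with its standard error (SE). Levels of different probe sets are not comparable with each other. The ratio of 3' to 5' control probe sets, which rises as RNA shortens, separated the involution arrays from the rest. For Gapdh it was 0.868 to 0.99 at puberty, 1.15 to 1.16 at pregnancy, 1.29 to 1.43 at lactation and 4.34 to 4.71 at involution, and for beta-actin it was 1.03 to 1.28, 1.69 to 1.91, 1.74 to 1.86 and 3.02 to 4.14 at the same stages. This ratio and the involution stage cannot be told apart in what follows.

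Of the 10 tested member probe sets, 6 passed limma's moderated F test over the 4 stages, against 51.6% of all tested probe sets. With lactation set against the mean of the other 3 stages, 7 of 10 were called, 2 higher and 5 lower, while 51.9% of all tested probe sets were called (27.5% higher and 24.3% lower). At involution 4 were called, all higher, where 17.7% of all probe sets were called and 10.4% were higher. The 4 were Notch1 (97497_at), Notch2 (104188_at), Dll1 and Hey1, all of them also called lower at lactation, which is part of the mean they were set against. In direct comparisons only Hey1 was called against every other stage. Notch1 and Notch2 were called higher at involution than at lactation alone, and Dll1 than at lactation and puberty. At pregnancy 1 was higher and 2 were lower, against 6.48% and 5.2% of all probe sets (11.7% together), and at puberty 3 were lower and 0 higher, against 13.2% and 11.2% (24.4% together). Between single stages, later against earlier, the members called were 3 of 10 for pregnancy against puberty (11.4% of all probe sets), 5 for lactation against puberty (47.8%), 3 for involution against puberty (7.48%), 5 for lactation against pregnancy (41.2%), 2 for involution against pregnancy (7.12%) and 5 for involution against lactation (45.1%). The median log2 change of the members was -0.03 at puberty, 0.18 at pregnancy, -0.42 at lactation and 0.40 at involution, beside -0.08, -0.07, 0.05 and -0.02 for all tested probe sets at the same stages. The member counts for the F test, at puberty and in every pairwise contrast with lactation were near these shares. The count of members higher at lactation was near its share too. Several pairwise calls were unstable over the alternatives. Those for pregnancy against puberty were lost in 13 (Notch1 97497_at), 11 (Dll1) and 10 (Notch4 93928_f_at) of 21. The call of Notch4 93928_f_at for lactation against pregnancy was lost in 14 of 21. Those of Notch2 101342_at for involution against puberty and against pregnancy were each lost in 14 of 19. The counts are a description of 10 probe sets from 7 genes and were given no test of their own.

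**Figure D1:**
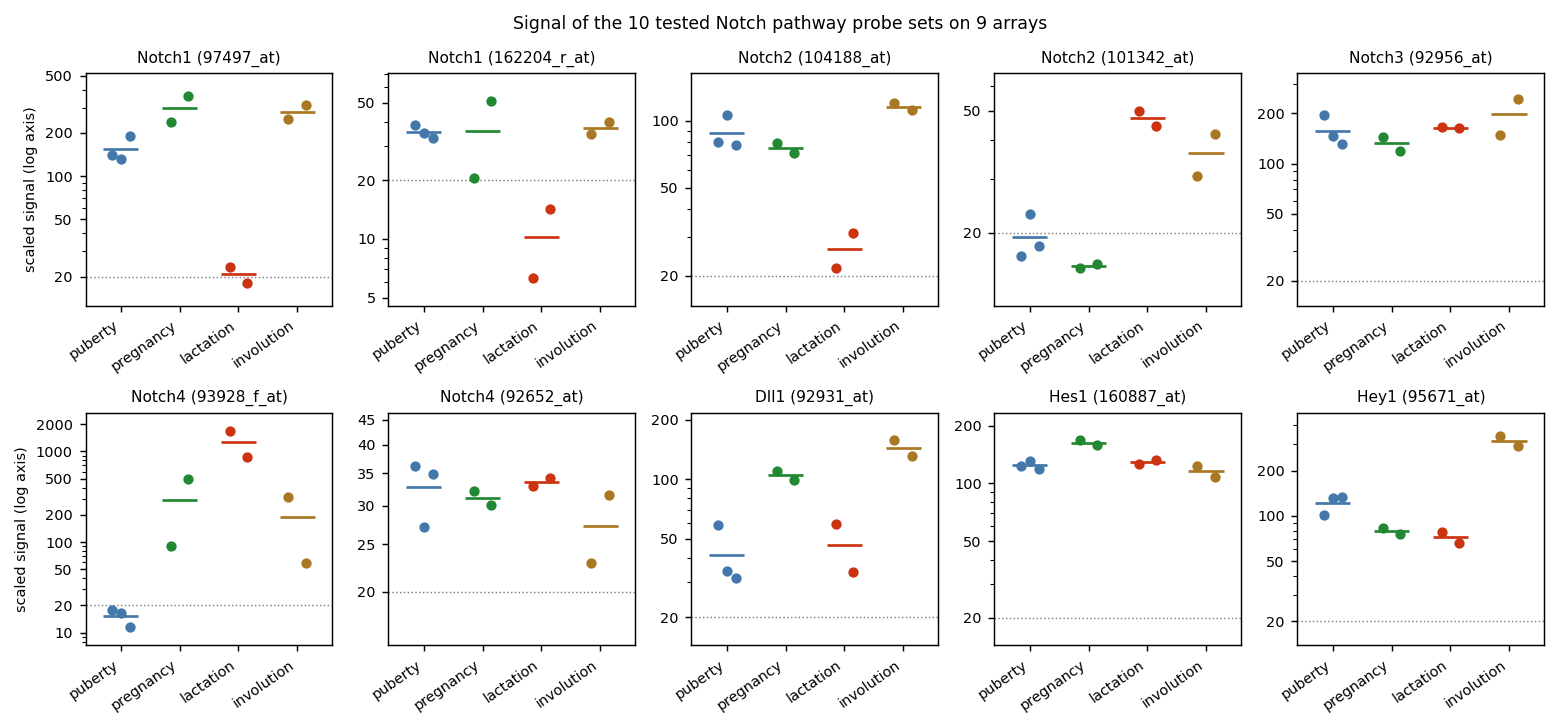
Scaled signal (log axis, arbitrary units) of the 10 tested member probe sets on each of the 9 arrays, by stage, with a short line at the stage mean and a dotted line at the floor of 20. Notch1 (97497_at) lies at 18.2 and 23.5 on the lactation arrays and at 131.5 or more on all others, while Hey1 lies at 293.3 and 337.6 on the involution arrays and at 132.9 or less on all others.

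Among the receptors, Notch1 carried the widest change that was reported by a probe set not shared with a sequence family. Notch1 (97497_at) had signals of 139.4, 131.5 and 191.7 at puberty, 237.9 and 358.8 at pregnancy, 23.5 and 18.2 at lactation, and 248.6 and 310.5 at involution. Both lactation arrays lay below all 7 others, as was the case in that direction for 22% of all tested probe sets. The lactation level was 20.8 ± 3.70 (SD, n = 2), and lactation was lower than the mean of the other stages (log2 change -3.42, SE 0.218, limma adjusted p = 8.79e-06). This call held in all 22 alternative settings and left-out arrays, with log2 changes of -3.54 to -2.21.

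Stage by stage, the Notch1 signal was 13.5-fold lower at lactation than at pregnancy (log2 change -3.75, adjusted p = 3.52e-05) and 12.8-fold higher at involution than at lactation (log2 change 3.68, adjusted p = 2.80e-05). Both ratios rest on lactation signals near the floor, and 1 of the lactation arrays was under it. In the order of levels, with differences between neighbours given as higher minus lower, pregnancy and involution did not differ beyond their spread (log2 difference 0.07, adjusted p = 0.972), nor did involution and puberty (0.87, adjusted p = 0.0713). Against the mean of the other stages, which contains the low lactation arrays, Notch1 was higher at pregnancy (log2 change 1.59, SE 0.218, adjusted p = 0.00385) and at involution (1.49, SE 0.218, adjusted p = 0.0030). The pregnancy call was lost without pregnancy array 2 (log2 change 1.29, adjusted p = 0.0676). With pregnancy set directly against puberty the log2 change was 0.94 (adjusted p = 0.0427), which was lost in 13 of 21 alternatives.

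A dimmer Notch1 probe set (162204_r_at) had signals of 38.4, 34.8 and 33.1 at puberty, 20.6 and 51 at pregnancy, 6.3 and 14.2 at lactation, and 34.5 and 40 at involution. Its lactation arrays were again the lowest of the 9 and both were under the floor, but it did not pass the F test (adjusted p = 0.165). The lactation contrast gave a log2 change of -0.80 (SE 0.291, adjusted p = 0.0454), which fell short of the threshold in 14 of 21 alternatives. The correlation of the log2 signals of the Notch1 probe sets was 0.737 over the 9 arrays, as a description of points that share arrays and stages.

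Notch2 was reported by a pair of probe sets that ran in opposite directions at lactation. Notch2 (104188_at) had signals of 80.4, 106.7 and 77.5 at puberty, 79.2 and 71.5 at pregnancy, 21.7 and 31.1 at lactation, and 119.9 and 111.6 at involution. Every lactation array was below, and every involution array above, all arrays of the other stages. Only 8.19% of all tested probe sets had both involution arrays above all others. The log2 change was -1.81 at lactation (SE 0.215, adjusted p = 0.000196), held in all 22 alternatives, and 1.06 at involution (SE 0.215, adjusted p = 0.0120). The involution call was lost without involution array 1 (adjusted p = 0.0744) or without involution array 2 (adjusted p = 0.0664). The signal was 4.46-fold higher at involution than at lactation (log2 change 2.16, adjusted p = 0.000352), while puberty and pregnancy did not differ beyond their spread (log2 difference 0.21, adjusted p = 0.688). The involution contrast is taken against a mean that contains the low lactation arrays. In direct comparisons involution was not called against puberty (log2 change 0.41, adjusted p = 0.374) or against pregnancy (0.62, adjusted p = 0.216).

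The second Notch2 probe set (101342_at) was dimmer, with signals of 16.8, 23 and 18.1 at puberty, 15.3 and 15.8 at pregnancy, 49.9 and 44.6 at lactation, and 30.7 and 42 at involution. Here the lactation arrays were the highest of the 9 (as for 27.9% of all tested probe sets) and the pregnancy arrays the lowest (4.24% of all). It passed the filter through its lactation and involution means alone, and both pregnancy arrays were under the floor. The filter thus kept it for the stages where it is high, and its p-values are not independent of that. Its calls are among the member counts given above. The log2 change was 0.93 at lactation (SE 0.159, adjusted p = 0.00137), -0.72 at pregnancy, with both arrays set to the floor (adjusted p = 0.0244), and -0.63 at puberty (adjusted p = 0.0129). Against pregnancy the lactation signal was at least 2.36-fold higher. The pregnancy and puberty calls were each lost in 5 of 20 alternatives, and with the floor raised to 50 the probe set was flat on all 9 arrays. The correlation between the Notch2 probe sets was -0.562 over the 9 arrays. Which of them follows Notch2 messenger RNA was not tested, so the direction for Notch2 at lactation rests on the choice of probe set.

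Notch3, a receptor best known from vascular mural cells, showed no stage difference past the threshold. Its signals (92956_at) were 194.5, 146.8 and 130.1 at puberty, 144.2 and 119.7 at pregnancy, 166.1 and 162.3 at lactation, and 149.1 and 244.7 at involution. All 4 stages overlapped, and the F test gave an adjusted p of 0.386. The spread between the involution arrays was wider than the gap between any neighbouring stage means.

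The Notch4 probe sets did not move together. The probe set 93928_f_at had signals of 17.9, 16.7 and 11.7 at puberty, 89.7 and 491.8 at pregnancy, 1677.1 and 867.1 at lactation, and 316.5 and 58.6 at involution. The suffix f in its name marks probes that match a family of sequences, so its signal cannot be assigned to Notch4 alone. All 3 puberty arrays were under the floor and below all others (6.85% of all tested probe sets), and both lactation arrays were above all others. Lactation was at least 60.3-fold higher than puberty (adjusted p = 0.000439), and against the mean of the other stages the log2 change was 3.86 at lactation (SE 0.707, adjusted p = 0.0020) and -4.02 at puberty (SE 0.621, adjusted p = 0.00233). The arrays within pregnancy and within involution differed by several fold, and without lactation array 1 the lactation call was lost (log2 change 3.39, adjusted p = 0.0727), as was the F test (adjusted p = 0.0540). At a floor of 50 the puberty call (log2 change -2.70, adjusted p = 0.0568) and the F test (adjusted p = 0.0513) were lost.

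The other Notch4 probe set, 92652_at, had signals of 36.2, 27.2 and 34.9 at puberty, 32.1 and 30.1 at pregnancy, 33 and 34.2 at lactation, and 22.9 and 31.5 at involution. No stage stood apart (F test adjusted p = 0.563), and its correlation with 93928_f_at was -0.125. The lactation level, 33.6 ± 0.860 (SD, n = 2), and the puberty level, 32.7 ± 4.85 (SD, n = 3), differed by 0.05 on the log2 scale (adjusted p = 0.870). The rise reported by 93928_f_at was therefore not shared by the probe set that names Notch4 without the family suffix.

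**Figure D2:**
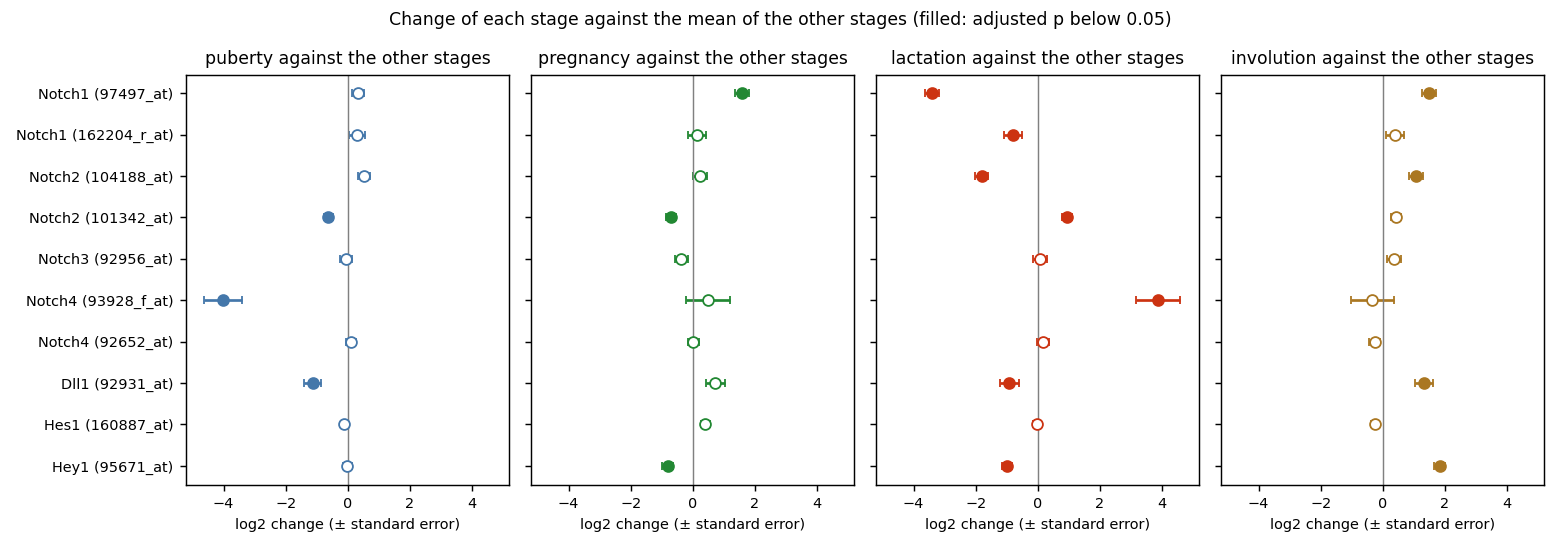
Log2 change of each tested member probe set at puberty, pregnancy, lactation and involution against the mean of the other 3 stages, with bars of 1 standard error; filled points passed the threshold of 0.05 after adjustment over 9783 probe sets. At lactation Notch1 (97497_at) lies at -3.42 and Notch2 (104188_at) at -1.81, while Notch2 (101342_at) lies at 0.93 and Notch4 (93928_f_at) at 3.86.

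Of the ligands, Dll1 was measured above the floor and Jag2 was not. Dll1, a Delta-like ligand that activates Notch receptors on the neighbouring cell, had signals (92931_at) of 58.4, 34.3 and 31.6 at puberty, 110.7 and 99.7 at pregnancy, 59.1 and 33.9 at lactation, and 157.2 and 131.1 at involution. The involution arrays were the highest, the pregnancy arrays came next without overlapping any other stage, and puberty and lactation overlapped. The F test gave an adjusted p of 0.00478. Against the mean of the other stages the log2 change was 1.33 at involution (SE 0.296, adjusted p = 0.0174), -1.14 at puberty (SE 0.260, adjusted p = 0.0143) and -0.91 at lactation (SE 0.296, adjusted p = 0.0296), while the 0.73 at pregnancy did not pass (adjusted p = 0.154).

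In direct comparisons Dll1 was 2.63-fold higher at pregnancy than at puberty (log2 change 1.40, adjusted p = 0.0306), 2.35-fold lower at lactation than at pregnancy (log2 change -1.23, adjusted p = 0.0267) and 3.21-fold higher at involution than at lactation (log2 change 1.68, adjusted p = 0.0062). The first of these calls was lost in 11 of 21 alternatives, among them without either pregnancy array, either lactation array, either involution array or puberty array 2 or 3 (adjusted p up to 0.182). The second was lost in 6 of 21, among them without either pregnancy array, lactation array 2 or involution array 1 (adjusted p up to 0.172), and the last in 2 of 21, without lactation array 2 (0.0588) or involution array 1 (0.0548). Involution and pregnancy did not differ beyond their spread (log2 difference 0.45, adjusted p = 0.543), nor did lactation and puberty (0.17, adjusted p = 0.711). The Dll1 calls were less stable than those of Notch1. The involution call was lost in 5 of 21 alternatives, among them without involution array 1 (adjusted p = 0.131), without involution array 2 (0.0892) and without pregnancy array 2 (0.0556), and the lactation call in 7 of 22, where leaving out lactation array 2 gave a log2 change of -0.51 (adjusted p = 0.293). The puberty call was lost in 4 of 22, among them without puberty array 2 (0.066) or puberty array 3 (0.0624).

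Jag2, a Jagged ligand, had signals (92510_at) of 7.1, 6.6 and 3.6 at puberty, 20 and 12.1 at pregnancy, 10 and 7.3 at lactation, and 11.2 and 14.4 at involution. No stage mean reached the filter of 20, so Jag2 was not tested. The second Dll1 probe set (161634_r_at) stayed between 1.3 and 7.3 on the 9 arrays and was not tested either.

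The targets Hes1 and Hey1, basic helix-loop-helix repressors, had different stage patterns. Hey1 (95671_at) had signals of 101, 131.5 and 132.9 at puberty, 83.1 and 76.5 at pregnancy, 78.6 and 66.6 at lactation, and 337.6 and 293.3 at involution. Both involution arrays were above all others by a wide margin, and pregnancy and lactation overlapped below puberty. At involution the level was 315 ± 31.3 (SD, n = 2), with a log2 change of 1.83 from the mean of the others (SE 0.168, adjusted p = 0.000399). This call held in all 21 alternatives that keep the involution arrays, with changes of 1.65 to 1.93.

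Against single stages the Hey1 signal was 4.35-fold higher at involution than at lactation (log2 change 2.12, adjusted p = 0.000112), 3.95-fold higher than at pregnancy (1.98, adjusted p = 0.0016) and 2.60-fold higher than at puberty (1.38, adjusted p = 0.00398). Lactation was 1.67-fold lower than puberty (log2 change -0.74, adjusted p = 0.0117), a call lost without lactation array 2 (adjusted p = 0.0583) and with the replicate number as a block (adjusted p = 0.0568), while puberty and pregnancy did not differ beyond their spread (log2 difference 0.60, adjusted p = 0.0822), nor did pregnancy and lactation (0.14, adjusted p = 0.623). Hey1 was also called lower at lactation (log2 change -1.0, adjusted p = 0.00125) and at pregnancy (-0.81, adjusted p = 0.0186) against the mean of the others. Those contrasts contain the high involution arrays. Among the remaining 3 stages the changes were -0.44 at lactation (adjusted p = 0.0821) and -0.23 at pregnancy (adjusted p = 0.399), and that at puberty was 0.67 (adjusted p = 0.0188) in place of -0.01 over all 4 stages. The pregnancy call was also lost without pregnancy array 1 (adjusted p = 0.108) or pregnancy array 2 (adjusted p = 0.143).

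Hes1 (160887_at) had signals of 122.7, 131.6 and 119.5 at puberty, 168.4 and 157.7 at pregnancy, 126.6 and 133.3 at lactation, and 123.1 and 108.7 at involution. Both pregnancy arrays were above all others (7.09% of all tested probe sets), but by a small margin. The log2 change at pregnancy was 0.40 (SE 0.133, adjusted p = 0.0872) and the F test gave an adjusted p of 0.111, so Hes1 was not called. It passed at pregnancy in 6 of 22 alternatives, among them the plain analysis of variance (adjusted p = 0.0333). Hes1 therefore had no called difference at lactation or involution, the stages at which Notch1 and Hey1 differed most.

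The other pathway genes were taken from a list of 63 by role, of which 35 were on the array and 34 were tested, each by its brightest probe set. Of these, 16 passed the F test (47.1%, beside the 51.6% of all probe sets). At lactation 8 of the 34 were higher and 7 lower, beside 27.5% and 24.3% of all tested probe sets. At puberty 2 were higher and 6 lower (11.2% and 13.2% of all). At pregnancy 3 were higher and 2 lower (6.48% and 5.2% of all), and at involution 1 and 3 (10.4% and 7.27% of all). The median log2 change of the list was 0.02 at puberty, -0.04 at pregnancy, 0.20 at lactation and 0.01 at involution. For all tested probe sets it was -0.08, -0.07, 0.05 and -0.02 at the same stages. By role, 4 of 5 nuclear complex genes and 7 of 9 corepressor and turnover genes passed the F test, while 0 of 1 further ligands, 1 of 3 sugar-modifying enzymes, 1 of 6 protease genes, 2 of 6 endocytosis genes and 1 of 4 further HES and HEY genes did. Rbpj, the DNA-binding partner of all 4 receptors, did not pass (adjusted p = 0.616).

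Among genes that act on the receptor, Mfng, the Manic fringe enzyme that adds sugar to the receptor and so tunes its response to ligands, averaged 262 ± 53.7 at puberty, 128 ± 35.1 at pregnancy, 54.3 ± 13.2 at lactation and 155 ± 8.37 at involution (SD, n = 3, 2, 2 and 2 arrays, as for all stage means here). Its log2 change was -1.68 at lactation (adjusted p = 0.000343) and 1.35 at puberty (adjusted p = 0.00177). Dtx2, a Deltex ubiquitin ligase, was also higher at puberty (log2 change 1.28, adjusted p = 0.00576) and lower at lactation (-2.04, adjusted p = 0.000359). Furin, the protease that cuts receptor precursors, was higher at lactation, with 723 ± 100.1 there and 286 ± 32.9 at puberty (log2 change against the other stages 1.20, adjusted p = 0.000685). Itch, a ubiquitin ligase that acts on Notch receptors, was higher at lactation as well (0.80, adjusted p = 0.00876), except without lactation array 1 (adjusted p = 0.124). Mfng and Dtx2 had their lowest stage mean at lactation, as Notch1 did, and Furin and Itch their highest.

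Among nuclear factors, the corepressor Ctbp2 was higher at pregnancy, at 329 ± 0.639 there, against 135 ± 12 at puberty (log2 change against the other stages 1.13, adjusted p = 0.00249). The histone deacetylase Hdac2 (0.57, adjusted p = 0.0295) and the acetyltransferase Kat2a (0.83, adjusted p = 0.0499) also passed at pregnancy. Ctbp2, Hdac2 and Kat2a were called lower at lactation, against a mean that contains the high pregnancy arrays. Against puberty or involution alone, only Kat2a against puberty was called at lactation (log2 change -0.98, adjusted p = 0.0128). The lactation call of Hdac2 was lost in 5 of 21 alternatives, that of Kat2a in 3 of 20 and that of Ctbp2 in 1 of 21. Kat2b, an acetyltransferase related to Kat2a, was lower at pregnancy (-0.68, adjusted p = 0.0166). A dimmer Kat2b probe set (161116_at) was not called there (-0.44, adjusted p = 0.221). The pregnancy call of Ctbp2 held in all 21 alternatives. Those of Hdac2, Kat2a and Kat2b were lost without pregnancy array 1 (adjusted p = 0.15, 0.217 and 0.133 in that order of genes), without pregnancy array 2 (0.160, 0.239 and 0.103) and with the replicate number as a block (0.0745, 0.101 and 0.0578), and that of Kat2a in 12 of 20 alternatives in all. Of the Groucho family, Tle5 was higher at lactation (1.16, adjusted p = 0.0020) and Tle1 higher at involution (0.83, adjusted p = 0.0319), a call lost in 11 of 20 alternatives, among them without involution array 2 (log2 change 0.53, adjusted p = 0.196). Snw1, a splicing factor and coregulator that binds the Notch complex, was lower at involution, at 6.85 ± 6.94 there, against 60.0 ± 0.462 at lactation, and both involution arrays were under the floor. The Snw1 call (log2 change -1.54, adjusted p = 0.0103) was lost without involution array 1 (0.0784) or involution array 2 (0.0826) and at a floor of 50 (0.302). Within the corepressor and turnover group 3 genes were higher and 3 lower at lactation.

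Hes5, a further target gene, passed the filter on low signals through its lactation mean alone, so its values are given with no test. It is nonetheless 1 of the 16 genes past the F test and 1 of the 8 higher calls at lactation counted above. It is also among the lower calls counted at puberty, pregnancy and involution. Those contrasts set signals at or near the floor against a mean that contains the lactation arrays. Its stage means (161051_at) were 11.1 ± 8.35 at puberty, 14.3 ± 9.71 at pregnancy, 64.7 ± 5.73 at lactation and 10.8 ± 4.25 at involution. The means at the other 3 stages were under the floor, and the log2 change at lactation was 1.67 with those signals treated as 20.

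**Figure D3:**
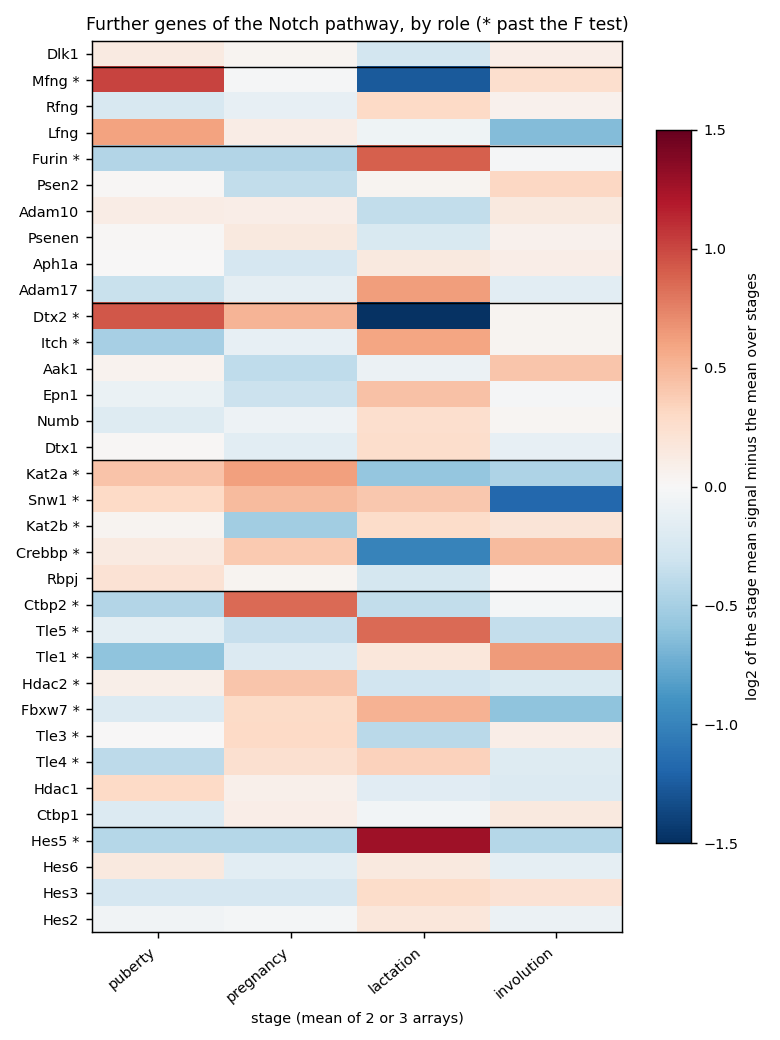
Colour map of the 34 tested further pathway genes (rows, grouped by role) at the 4 stages (columns, means of 2 or 3 arrays), with colour for the log2 of the stage mean signal minus the mean over stages and the scale ending at 1.5 in either direction. The 16 genes marked with a star passed the F test, and Hes5 and Furin are red at lactation while Mfng and Dtx2 are blue there.

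Whole glands hold epithelium, vessels, fat, stroma and blood cells, in which Notch genes are used differently, and in such RNA fewer cells of a type and less RNA per cell cannot be told apart. Marker lists moved with the member values at several stages. At lactation, where Notch1 (97497_at) and Notch2 (104188_at) were lowest, 6 of 9 endothelial genes were lower and 1 higher, with a summed signal of 819 to 820 at lactation, against 1328 to 1731 at the other stages, and the endothelial gene Vwf was under the floor. All 10 stromal genes were lower (summed signal 4031 to 4975 at lactation, against 9227 to 17364), as were 6 of 7 adipocyte genes (2089 to 2460, against 5838 to 12612), 7 of 7 T cell genes (236 to 321, against 813 to 1924) and 5 of 6 B cell genes (347 to 733, against 859 to 3234). Of the macrophage genes 4 of 7 were lower at lactation, as were 8 of 8 skeletal muscle genes, while 1 adipocyte gene was called higher. Of the pericyte and vascular smooth muscle genes 5 of 9 were lower (summed signal 2503 to 2512 at lactation, against 1810 to 4403), while Notch3 had no called change there. Luminal genes were split, with 3 of 12 higher and 4 lower, and of the basal genes 2 of 9 were higher. Some lists share genes. Myh11, Acta2 and Tagln stand in both the pericyte and the basal list. With lactation means of 546, 1052 and 641 they make up most of the pericyte sum. Thy1 stands in both the stromal and the T cell list, with a mean of 168 at lactation. The part of these lists in the Notch values was not tested.

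At involution, where Hey1, Dll1 and Notch2 (104188_at) were highest, 6 of 7 macrophage genes were higher, with a summed signal of 5555 to 7088 at involution, against 1465 to 2953 at the other stages, and 5 of 6 B cell genes were higher (2889 to 3234 at involution, against 347 to 2269). At the same stage 3 of 9 endothelial, 4 of 7 adipocyte, 2 of 7 T cell and 1 of 12 luminal genes were higher. Of the basal genes 2 of 9 were higher and 3 lower at involution, and of the pericyte and vascular smooth muscle genes 2 of 9 were higher and 2 lower. Of the skeletal muscle genes 2 of 8 were lower there. At puberty 8 of 8 skeletal muscle genes were higher (9495 to 23677 at puberty, against 147 to 1268), as were 7 of 7 T cell genes (1472 to 1924 at puberty, against 236 to 1276), 5 of 6 B cell genes, 7 of 10 stromal genes and 5 of 7 adipocyte genes, while 6 of 9 basal genes and 5 of 12 luminal genes were lower. Also at puberty 4 of 9 endothelial and 2 of 12 luminal genes were higher, and of the pericyte and vascular smooth muscle genes 5 of 9 were higher and 3 lower. The macrophage genes were split at puberty, with 2 of 7 higher and 2 lower, while 1 B cell gene and 1 adipocyte gene were lower. Puberty is the stage at which Mfng and Dtx2 were higher and Dll1, Notch2 (101342_at) and Notch4 (93928_f_at) lower. At pregnancy 4 of 12 luminal, 5 of 9 basal, 5 of 10 stromal and 1 of 9 endothelial genes were higher. Of the pericyte and vascular smooth muscle genes 3 of 9 were higher and 1 lower there. Lower at pregnancy were 2 of 7 T cell genes, 1 of 6 B cell genes and 1 of 7 adipocyte genes. Of the keratins that define basal cells, Krt5 and Krt14 were under the floor on all puberty and pregnancy arrays. Neither these lists nor the 3' to 5' ratios were tested for their part in the Notch values.

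**Figure D4:**
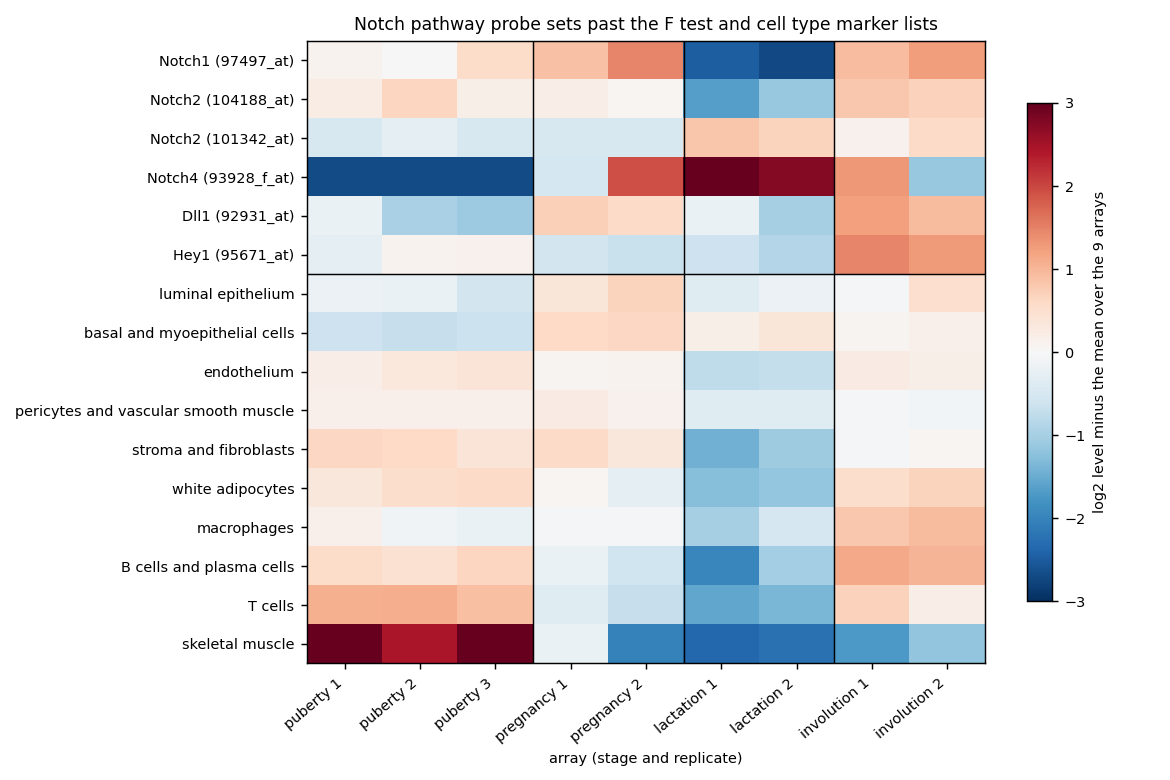
Colour map of the 6 member probe sets past the F test (upper rows) and 10 marker lists (lower rows) on each of the 9 arrays (columns), with colour for the log2 level minus its mean over the arrays, averaged over the genes of a list, and the scale ending at 3 in either direction. Endothelial, stromal, adipocyte and T cell lists are lowest on the lactation arrays, and the macrophage list is highest on the involution arrays.

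The tested probe sets most like each member in log2 signal over the 9 arrays are given as a description, since 9 arrays of 4 stages make any genes with the same stage means correlate. For Notch1 (97497_at) they were Ets2, a transcription factor (r = 0.991), and the unnamed transcript 6430706D22Rik (r = 0.987). The Ets2 means were 132 ± 0.907 at puberty, 161 ± 14.7 at pregnancy, 71.3 ± 1.85 at lactation and 164 ± 20.6 at involution, so that the dip at lactation was shallower than that of Notch1. For Notch2 (104188_at) they were Lyz2, lysozyme of macrophages and other myeloid cells (r = 0.994), and the calcium-binding protein gene S100a4 (r = 0.991).

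For Hey1 the nearest were Gadd45a, a stress-response gene (r = 0.983), and Anxa8, an annexin (r = 0.983). Gadd45a averaged 79.6 ± 11.4 at puberty, 51.7 ± 0.923 at pregnancy, 48.0 ± 4.42 at lactation and 204 ± 66.1 at involution. For Dll1 they were Pald1 (r = 0.941) and Rbpms, an RNA-binding protein gene (r = 0.939), and for the family probe set of Notch4 they were Pcgf2, a Polycomb gene (r = 0.981), and Ndrg4 (r = 0.974). The Notch1 and Notch2 matches both dipped at lactation, whereas the Hey1 matches peaked at involution.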

How the data were processed

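RNA of 9 mouse mammary glands was hybridised to MG-U74Av2 arrays. The deposited values are 1 intensity for each probe set on each array, on a linear scale, from MAS5 by the submitters' processing notes (version not stated there). The filtering and per-gene normalization described for GeneSpring are not in these values. Without the 66 control probe sets, the arrays were brought to a common median, a floor of 20 was applied and the signals were converted to log2. Probe sets with a stage mean above 20 (9783 of 12422) were fitted with limma 3.58.1 in R 4.3.3 (lmFit, eBayes with a trend, no covariate, all 9 arrays), giving the F test over stages, contrasts of a stage with the mean of the remaining 3, and 6 pairwise contrasts, later minus earlier. Benjamini-Hochberg adjustment covered all 9783 probe sets, with a threshold of 0.05, and the script was tested on simulated data. Small numbers of arrays limit the precision. Symbols come from the platform annotation, in which 10833 probe sets carry 1 symbol, 396 several and 1193 none, updated through RefSeq's genes (GRCm38.p6) for 10817.

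The members and gene lists were chosen with earlier results of these data known. Every member probe set is named, of the wider list the 12 genes with the smallest F test p, and for each member called by its brightest probe set the 2 most correlated genes. Alternatives were the deposited scale, 75th percentile and quantile scaling, no floor, a floor of 50, log2(signal + 16), no filter, a filter of 100, a fit with no trend, robust eBayes, all probe sets of the wider genes, a plain analysis of variance (the methods name one with GeneSpring's error estimates, not used here), the replicate number as a block, each array left out, and the involution arrays left out, the last chosen after seeing the 3' to 5' ratios. The files were read with data.table (version 1.17.8) and pandas 2.3.3 (Python 3.11.15) and plotted with matplotlib 3.10.9.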

Additional observations from a re-analysis of the deposited data

How the results depend on the processing

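Of 2295 values of single probe sets under the alternatives, 2053 kept their direction and their side of the threshold, 52 changed sign without being called in either setting, 148 fell short of the threshold, 41 newly passed it and 1 reversed. The reversed value was Hey1 at puberty, 0.67 on the log2 scale with the involution arrays omitted. The 17 stage calls of the members kept their sign under all 3 other scalings. The number of member probe sets past the F test (6) stayed within 5 to 7 with an array left out. Some smaller moves come first. The 7 members called at lactation became 5 at a floor of 50, with no filter, the filter of 100 or the plain analysis of variance. The 4 called at involution became 3 with no filter or the plain analysis of variance. For the wider list, the 16 genes past the F test became 11 at a floor of 50, and 12 with no filter, the plain analysis of variance or the replicate block. The larger moves of the counts were as follows. At puberty 3 became 1 at a floor of 50, and 1 to 4 with an array left out (1 without puberty array 3). At pregnancy 3 became 1 with the replicate block, and 0 to 4 with an array left out (1 without pregnancy array 1 and 0 without pregnancy array 2). At lactation 7 became 4 with the involution arrays omitted (2 higher and 2 lower), and 5 to 6 with an array left out. At involution 4 became 2 to 4 with an array left out (2 without involution array 2). For the wider list, 16 genes past the F test became 10 with the filter of 100, and 9 to 15 with an array left out (9 without lactation array 1). Its 8 calls at puberty became 4 at a floor of 50, 3 with the replicate block, and 4 to 9 with an array left out (4 without puberty array 1 or 3). Its 5 calls at pregnancy became 3 with no floor, a floor of 50 or a filter of 100, 1 with the replicate block, and 1 to 7 with an array left out (1 without either pregnancy array, 2 without puberty array 2 and 3 without puberty array 3). Its 15 calls at lactation became 9 to 14 with an array left out (9 without lactation array 1). Its 4 calls at involution became 2 with no floor, no filter, the plain analysis of variance or the replicate block, 1 at a floor of 50, 0 with the filter of 100, and 0 to 7 with an array left out (0 without involution array 2, 2 without puberty array 3 or either pregnancy array, 7 without lactation array 2). The filter of 100 tests fewer genes and an omitted array leaves fewer samples; the cause of the other moves was not tested. A stage left with 1 array was assumed to vary like the others.

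Samples with the same replicate number did not deviate together from their stage means (correlations of -0.153 to 0.049 over 12 pairs), and the numbers were taken to name arrays and not to pair them. The values for different numbers (-0.112 to 0.153) are no separate reference, since the arrays of a stage with 2 arrays deviate from its mean in mirror image. With the floor of 50, 2 member probe sets (Notch2 101342_at and Notch4 92652_at) were flat and gave no value. Members under 20 on whole stages (Jag2 and Dll1 161634_r_at at every stage, Notch4 93928_f_at at puberty, Notch2 101342_at at pregnancy, Notch1 162204_r_at at lactation) have only bounds there.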

Other observations

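Several of the further pathway genes had more than the probe set that represented them. The second probe set of Ctbp2 (160979_at) had stage means of 64.4 ± 8.71 at puberty, 162 ± 16.9 at pregnancy, 42.3 ± 8.73 at lactation and 107 ± 3.08 at involution (SD, n = 3, 2, 2 and 2 arrays), and was called higher at pregnancy (log2 change 1.29, limma adjusted p = 0.00538) and lower at lactation (-1.30, adjusted p = 0.000686), as the brighter 1 was. It was lowest at lactation, where the brighter 1 was lowest at puberty, and its own puberty contrast was not called (adjusted p = 0.0715). The second probe set of Snw1 (161195_i_at) had means of 6.34 ± 2.08 at puberty, 14.7 ± 8.66 at pregnancy, 46.6 ± 0.826 at lactation and 7.62 ± 2.69 at involution, and since it passed the filter on low signals through lactation alone, these are given with no test. At involution both Snw1 probe sets were under 20. The means of 161195_i_at were under 20 at puberty and pregnancy too, where 104158_at averaged 55.9 and 62.9. The Snw1 probe sets thus differed in their stage pattern. The second Hes5 probe set (162069_at) reached 13.1 on no more than 1 array and was not tested, so the Hes5 values at lactation have no second probe set to set it against. Adam10, which makes the first cut of the bound receptor, had a dimmer probe set (100751_at) with 107 ± 17.1 at lactation and 48.2 ± 26.1 at involution, and no stage of it was called (F test adjusted p = 0.0891). Aak1, of the endocytosis group, had a dimmer probe set (162380_r_at) called higher at lactation (log2 change 1.07, limma adjusted p = 0.0476), though it did not pass the F test (adjusted p = 0.0871). Its brighter probe set was not called at lactation (-0.14, adjusted p = 0.608).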
